A study of Arabidopsis thaliana with 91 samples.

Results

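H3K4me3 was compared between Arabidopsis plants that carried the TRBIP1-dCAS9-MQ1v fusion (2 libraries) and fwa rdr6 plants (2 libraries), with the single dCAS9-MQ1v library set beside them. These 5 libraries were 5 of the 50 libraries with a peak list, and of the 29 H3K4me3 libraries among them, in a series of 91 samples. The study asked how H3K4me3 and DNA methylation act on each other in Arabidopsis by directing histone and DNA methylating or demethylating proteins to chosen loci, mainly FWA. All 5 libraries belonged to the same labelled set (set 10) and came from leaves of soil-grown plants 4 to 5 weeks old, of the Col-0 ecotype. TRBIP1-dCAS9-MQ1v plants carried a transgene that joins TRBIP1, a nuclease-dead Cas9 directed to FWA by guide RNAs, and MQ1v, a variant of a bacterial CG methyltransferase. dCAS9-MQ1v plants carried the fusion without TRBIP1. Per the study, both constructs were placed in the fwa rdr6 background, so that all 3 groups shared the unmethylated fwa epiallele and the rdr6 mutation, which lessens transgene silencing. The labels do not give the number of plants or independent transgenic lines behind a library, nor the generation, and the promoter of the dCas9 fusions is not given in the sources used here. The study describes its ChIP-seq replicates as biological and independent, without naming the plants behind each library, and a p-value measures the spread between these libraries.

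Each library was described by the peaks that the authors called on it, each with a start, an end and a fold enrichment over background. Wherever the peaks of both libraries of a group coincided over 100 bp or more, the common interval was taken as a segment. A segment was lost where it was replicated in fwa rdr6 and no TRBIP1-dCAS9-MQ1v peak overlapped it by 1 bp, and gained where it was replicated in TRBIP1-dCAS9-MQ1v and no fwa rdr6 peak overlapped it. There were 201 gained segments among 15594 replicated TRBIP1-dCAS9-MQ1v segments and 295 lost segments among 15814 replicated fwa rdr6 segments. Of the shared stretches shorter than 100 bp, 7 would have been gained and 3 would have been lost. The longest of them measured 92 bp on the gained side and 30 bp on the lost side, and the shortest segments that passed measured 112 bp and 106 bp.

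H3K4me3 is the trimethyl mark on lysine 4 of histone H3 that sits on the nucleosomes just downstream of the start of most active genes, and its presence and CG methylation of the DNA largely avoid each other. JMJ14 is a plant demethylase that removes H3K4 methylation. It is brought to genes by the telomere repeat binding proteins (TRBs), and TRBIP1 is a small coiled-coil protein that interacts with this set of proteins. FWA encodes a homeodomain transcription factor that delays flowering. It is silent in leaves of wild-type Col-0 because tandem repeats around its start are methylated, and it is active in the fwa epiallele, where these repeats have lost methylation.

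The FWA segment is the locus for which the guides were made, so its sequence is shown first, with CG dinucleotides, the substrate of MQ1v, in capitals. All sequences are the plus strand of the RefSeq TAIR10.1 assembly, on which FWA (AT4G25530) spans chr4:13038360-13042464. The first sequence covers the 200 bp before the FWA start (chr4:13038160-13038359), and the others cover the first intron (chr4:13038418-13038519) and the 5′ part of the second intron (chr4:13038629-13038828).
FWA upstream: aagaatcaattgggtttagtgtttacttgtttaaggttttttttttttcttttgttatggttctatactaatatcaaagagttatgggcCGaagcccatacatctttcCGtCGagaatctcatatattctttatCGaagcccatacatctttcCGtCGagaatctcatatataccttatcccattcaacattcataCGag
FWA first intron: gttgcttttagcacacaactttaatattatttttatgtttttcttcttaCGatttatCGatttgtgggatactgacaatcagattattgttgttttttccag
FWA second intron: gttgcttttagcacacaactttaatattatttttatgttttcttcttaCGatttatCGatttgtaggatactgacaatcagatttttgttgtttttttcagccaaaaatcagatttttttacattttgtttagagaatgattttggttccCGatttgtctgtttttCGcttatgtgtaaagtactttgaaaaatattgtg
The upstream stretch held 7 CGs, the first intron 2 and the part of the second intron 4. The upstream stretch contains a repeat of 38 bp whose copies start 111 and 66 bp before the gene start, so that they lie 45 bp apart. Across the introns and exons the copies lay 210 or 211 bp apart, with the longest exact match of 63 bp starting at 36 and 247 bp after the gene start. The beginning of both introns is the same sequence but for a few bases, which the printed lines show. Over the whole lost FWA segment of 777 bp there were 24 CGs, or 9.27 per 300 bp, at a GC content of 33.2%.

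The lists were of similar size. They held 15920 and 15825 nuclear peaks in TRBIP1-dCAS9-MQ1v, 15731 in dCAS9-MQ1v, and 16034 and 16096 in fwa rdr6, and covered between 13.9 and 14.6 Mb each. The median fold was 5.41 and 5.59 in TRBIP1-dCAS9-MQ1v, 5.88 in dCAS9-MQ1v, and 5.42 and 5.90 in fwa rdr6. The lists had not been written alike. In the fusion lists 48 to 59 intervals were entered more than once, with 1 line per summit, against 2632 and 2482 intervals in the fwa rdr6 lists. Among peaks of 1 kb or longer, a listed fold under 2 was found for 2.34% and 2.20% in TRBIP1-dCAS9-MQ1v and 2.42% in dCAS9-MQ1v, against 0.468% and 0.465% in fwa rdr6. The study gives read totals per library, but the lists hold no read numbers behind a peak, and depth was not analysed here. As for the tissue, all 6 leaf photosynthesis genes examined had a peak in each of the 5 libraries, and none of the 2 pollen and 3 root hair genes did. Of the 3 seed genes, SESA1 and OLEO1 had peaks in all 5 libraries and CRA1 in none.

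FWA carried no H3K4me3 peak in either TRBIP1-dCAS9-MQ1v library, a weaker one in dCAS9-MQ1v, and a strong one in both fwa rdr6 libraries. The dCAS9-MQ1v peak lay at chr4:13038271-13038884 with a fold of 3.32 and a −log10 q of 20.9. The fwa rdr6 peaks lay at chr4:13038214-13039074 with a fold of 5.60 (−log10 q 68.0) and at chr4:13038255-13039031 with a fold of 5.59 (−log10 q 65.2). The TRBIP1-dCAS9-MQ1v libraries thus did not overlap the others at this locus, while dCAS9-MQ1v stood at 59.3% of the mean fwa rdr6 fold. With 2 libraries against 2 an exact two-sided permutation test cannot give a p below 0.33, so no test was made of this locus. The lost segment reached from 105 bp before the FWA start to 672 bp after it, and its middle lay in an intron. In bulk leaf tissue, fewer cells with the mark and less mark per cell cannot be told apart.

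The neighbours of FWA kept their peaks. SLK1 (AT4G25520), which encodes a SEUSS-like transcriptional adaptor and starts upstream of FWA in the opposite direction, had folds of 5.57 and 5.34 in TRBIP1-dCAS9-MQ1v, 6.06 in dCAS9-MQ1v, and 5.14 and 5.22 in fwa rdr6. MSH3 (AT4G25540), a mismatch repair gene whose end overlaps that of FWA, had folds of 7.23 and 7.01 in TRBIP1-dCAS9-MQ1v, 6.66 in dCAS9-MQ1v, and 6.70 and 6.21 in fwa rdr6. In limma's moderated test across all shared segments, neither differed between TRBIP1-dCAS9-MQ1v and fwa rdr6 beyond the spread of the libraries (SLK1 log2 difference 0.12 ± 0.12 SE, adjusted p = 0.844, and MSH3 0.19 ± 0.11 SE, adjusted p = 0.721, n = 2 each).

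**Figure D1:**
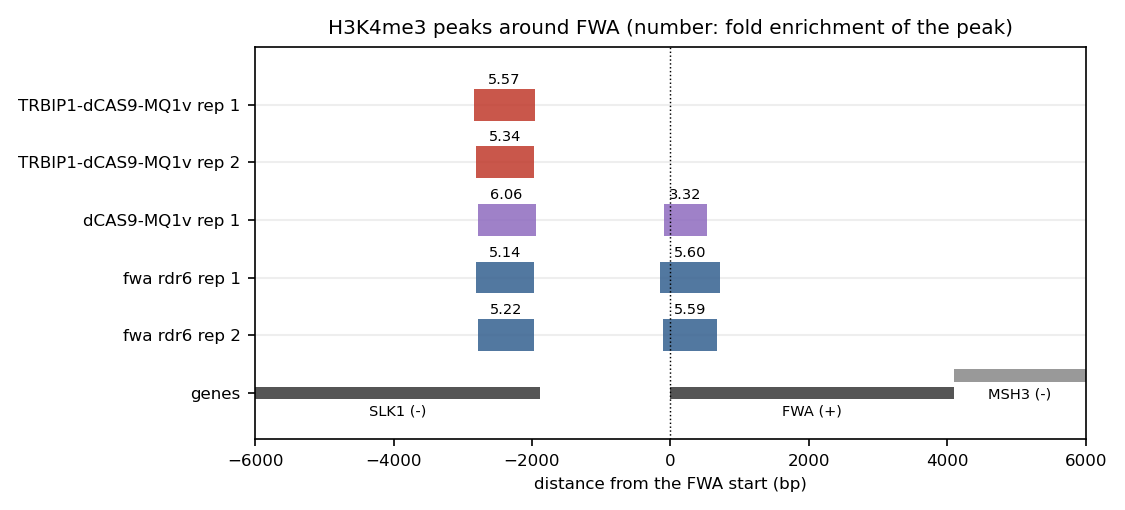
H3K4me3 peaks within 6 kb of the FWA start, 1 line per library, with the fold of each peak above it and the genes at the bottom (strand in brackets). No TRBIP1-dCAS9-MQ1v peak lies over the FWA start, where dCAS9-MQ1v has a peak of fold 3.32 and fwa rdr6 peaks of 5.60 and 5.59, while the peak of SLK1 is present in all 5 libraries.

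Elsewhere in the series, the peak at FWA went with the fwa epiallele or with a directed H3K4 methyltransferase. Its fold was 6.87 and 6.06 in the 2 fwa libraries, 3.54, 5.69 and 3.76 in 3 SDG2-ZF libraries, 4.31 and 3.32 in 2 SunTag-SDG2_rdr6 libraries, and 3.29 and 2.39 in 2 SDG2-ZF_rdd libraries. No peak was listed there in the 4 Col-0 libraries or in rdr6, noguideSDG2_rdr6, rdd and SDG2(H1866K)cd. TRBIP1-ZF, in which TRBIP1 is brought to FWA by a zinc finger in place of dCas9, had a peak of fold 2.27 in replicate 1 and none in replicate 2. FWA thus had no listed peak in TRBIP1-dCAS9-MQ1v, as in Col-0. These libraries belong to other labelled sets, so group and set cannot be told apart in this comparison.

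Genome-wide, nearly all H3K4me3 segments were shared. Only 1.29% of replicated TRBIP1-dCAS9-MQ1v segments were gained and 1.87% of replicated fwa rdr6 segments were lost. The gained segments covered 87.9 kb with a median length of 354 bp, and the lost segments covered 118 kb with a median length of 330 bp, whereas the median over all segments was 785 bp in TRBIP1-dCAS9-MQ1v and 796 bp in fwa rdr6. They were also weak: taking the lower fold of the 2 libraries, the median was 2.21 for gained segments (range 1.23 to 9.02) and 2.11 for lost segments (1.55 to 8.00), against 5.25 and 5.34 for all segments of the same groups. Of the replicated fwa rdr6 segments, 15174 had a peak in both TRBIP1-dCAS9-MQ1v libraries, 214 in replicate 1 only and 131 in replicate 2 only. The counts depended on the libraries taken. Without TRBIP1-dCAS9-MQ1v replicate 1 there were 509 lost segments, without TRBIP1-dCAS9-MQ1v replicate 2 there were 338 gained ones, and without fwa rdr6 replicate 1 there were 316 gained and 484 lost.

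The single dCAS9-MQ1v library, which had no part in the choice of segments, had a peak at 103 of the 201 gained segments (51.2%, Wilson 95% interval 44.4 to 58.1). Among the 295 lost segments it had a peak at 66 (22.4%, Wilson 95% interval 18.0 to 27.5). The share was 98.2% over all TRBIP1-dCAS9-MQ1v segments and 97.2% over all fwa rdr6 segments, and the intervals cover counting error only. At most lost segments dCAS9-MQ1v thus had no peak either, as in TRBIP1-dCAS9-MQ1v. The split widened with fold. At gained segments a dCAS9-MQ1v peak was found at 17 of 60 with a fold under 2 and at 29 of 31 with a fold of at least 4, whereas at lost segments it was found at 32 of 127 and at 1 of 19. The 1 strong lost segment with a dCAS9-MQ1v peak was FWA. FWA ranked 7 among all 295 lost segments by fold and 1 among the 66 that dCAS9-MQ1v retained. At those 66 segments the dCAS9-MQ1v fold had a median of 100% of the fwa rdr6 mean, and 33 of them, FWA included, lay below it. Without TRBIP1-dCAS9-MQ1v replicate 1 the share of lost segments with a dCAS9-MQ1v peak was 45.2%.

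**Figure D2:**
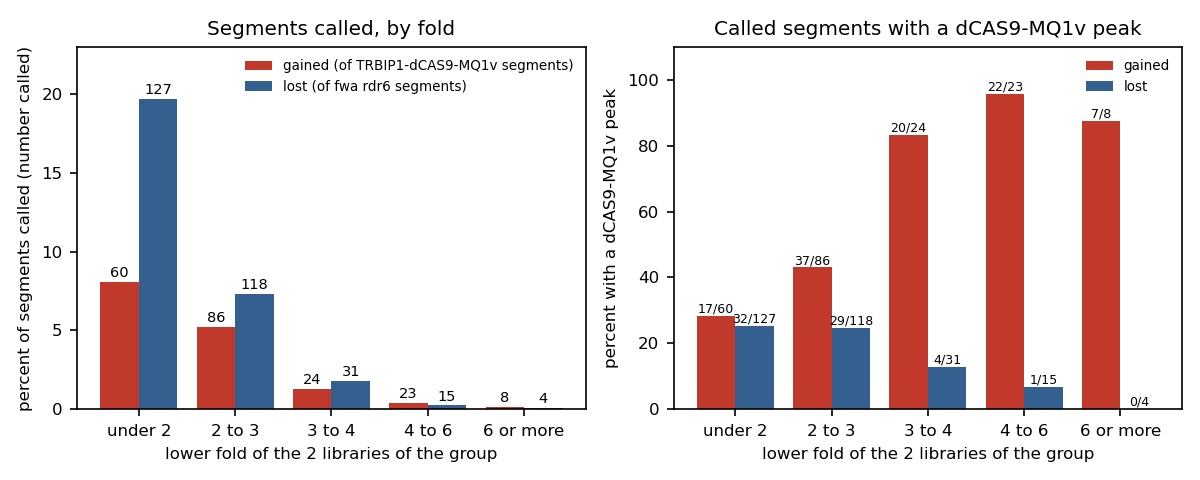
Left, the percent of replicated segments called gained (red, of TRBIP1-dCAS9-MQ1v segments) or lost (blue, of fwa rdr6 segments), by the lower fold of the 2 libraries, with the number called above each bar. Right, the percent of those called segments that carry a dCAS9-MQ1v peak. Calls thin out with fold, to 8 gained and 4 lost at a fold of 6 or more, while the share with a dCAS9-MQ1v peak is 28.3% of gained segments under a fold of 2 and 95.7% at 4 to 6, and 25.2% and 6.67% of lost ones.

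The strongest gained segments lay at retrotransposons, pseudogenes and genes of little known function. At the head was a segment at AT5G03090, annotated as mto 1 responding down 1, at chr5:724722-726311, with its middle in an intron. It had folds of 9.02 and 9.17 in TRBIP1-dCAS9-MQ1v, 9.60 in dCAS9-MQ1v and no peak in fwa rdr6. SADHU3-2 and SADHU6-1, members of the noncoding Sadhu retrotransposon family, came next. SADHU3-2 (chr3:14749405-14750396) had folds of 7.06 and 7.11 in TRBIP1-dCAS9-MQ1v and 8.72 in dCAS9-MQ1v, and SADHU6-1 (chr3:525136-526245) had 6.96 and 7.18 in TRBIP1-dCAS9-MQ1v and 9.77 in dCAS9-MQ1v, with no fwa rdr6 peak at either. In all 3 the dCAS9-MQ1v fold stood above both TRBIP1-dCAS9-MQ1v folds. A stretch upstream of the pseudogene AT4G06720 (chr4:4020904-4022352) had folds of 6.96 and 7.29 in TRBIP1-dCAS9-MQ1v and no peak in dCAS9-MQ1v or fwa rdr6, and it was the only one of the 12 strongest gained segments without a dCAS9-MQ1v peak. At AT4G28310, annotated as a microtubule-associated protein, the dCAS9-MQ1v fold of 2.78 was below the TRBIP1-dCAS9-MQ1v folds of 5.68 and 6.83. The other 7 of the 12 lay at AT5G12085, AT5G01080 (a beta-galactosidase related protein), AT2G00880, AT4G07965, AT5G41660, AT4G07586 and between genes on chromosome 4. Their folds ran between 5.63 and 7.92 in TRBIP1-dCAS9-MQ1v and between 5.56 and 7.92 in dCAS9-MQ1v. Many of the 12 were marked elsewhere in the series: 9 had a peak in both fwa libraries. Of the 24 H3K4me3 libraries outside the 3 groups, between 1 (AT5G41660) and 19 (AT2G00880) had a peak at them. Of the 12, 5 lay on chromosome 4. Of all 201 gained segments 44 did, and 1.85% of the segments there were gained, against 0.929% to 1.45% on the other chromosomes.

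Among the strongest lost segments, pseudogenes and chromosome 2 came first. The first was a pseudogene, AT2G01840 (chr2:377219-378849), with folds of 8.00 and 8.94 in fwa rdr6 and no peak in TRBIP1-dCAS9-MQ1v or dCAS9-MQ1v. It was followed by stretches at the pseudogenes AT2G13870 (7.38 and 8.18 in fwa rdr6) and AT2G14180 (6.60 and 9.32), and by a stretch upstream of PIN4 (chr2:183923-184742, 6.31 and 6.64), which encodes an auxin efflux carrier. AT2G02205, another pseudogene on chromosome 2, had 5.95 and 7.96 in fwa rdr6. None of these 5 had a peak in TRBIP1-dCAS9-MQ1v or dCAS9-MQ1v, and all 5 were on chromosome 2. After AT3G33528 (5.75 and 6.20 in fwa rdr6) came FWA, and then AT4G02795, AT3G11290 (annotated as a Myb/SANT-like DNA-binding protein), AT4G05380, AT3G29639 and EMB3003 (a 2-oxoacid dehydrogenase acyltransferase), with fwa rdr6 folds between 4.33 and 5.97. Of the 12 strongest lost segments, FWA was the only one with a dCAS9-MQ1v peak, and 8 had a peak in both fwa libraries. The lead of chromosome 2 was less marked over all 295 lost segments, of which 56 lay there. On chromosome 2, 2.32% of the fwa rdr6 segments were lost, against 1.61% to 1.92% on the other chromosomes.

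**Figure D3:**
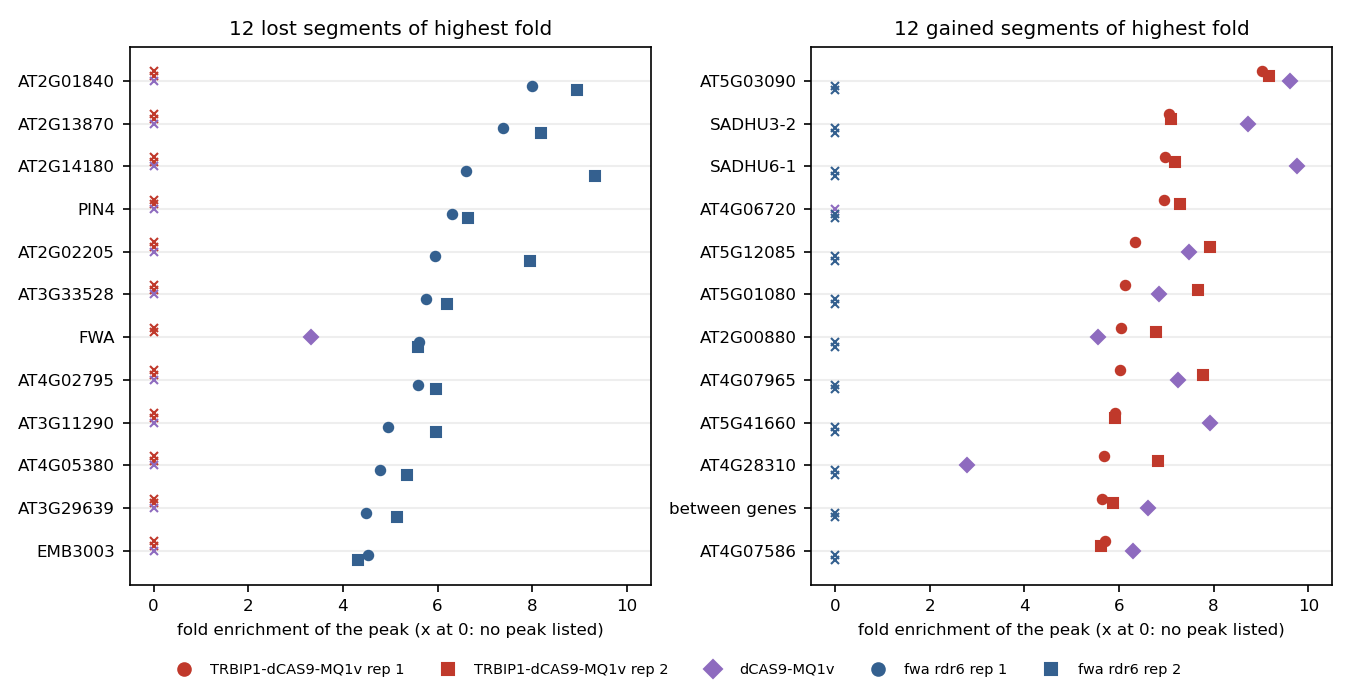
Fold of the peak in each of the 5 libraries at the 12 lost (left) and 12 gained (right) segments of highest fold, where a cross at 0 marks a library with no peak. Among the lost segments only FWA has a dCAS9-MQ1v peak (3.32), and among the gained ones only AT4G06720 has none.

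The sequence around the summit of the strongest segments is shown, as the stretch that was most marked in one group and had no peak in the other. The windows of 150 bp are centred on the summit listed in replicate 1 of the group with the peak, with CGs in capitals. They lie in the AT5G03090 gained segment (chr5:725725-725874), the SADHU3-2 gained segment (chr3:14749952-14750101) and the AT2G01840 lost segment (chr2:378268-378417).
AT5G03090: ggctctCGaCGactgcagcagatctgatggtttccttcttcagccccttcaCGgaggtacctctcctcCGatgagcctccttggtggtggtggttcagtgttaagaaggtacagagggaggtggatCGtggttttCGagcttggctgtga
SADHU3-2: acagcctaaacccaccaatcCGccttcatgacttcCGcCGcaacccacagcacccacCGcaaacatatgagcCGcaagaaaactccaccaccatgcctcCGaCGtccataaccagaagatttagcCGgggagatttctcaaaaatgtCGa
AT2G01840: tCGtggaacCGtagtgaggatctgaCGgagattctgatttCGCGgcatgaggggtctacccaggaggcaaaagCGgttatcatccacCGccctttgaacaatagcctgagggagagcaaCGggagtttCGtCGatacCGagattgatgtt
These windows held 6, 9 and 11 CGs and between 52.7% and 55.3% GC. Over the middle 300 bp of each segment, the median number of CGs was 14 at gained segments, 10 at lost ones and 12 over all segments of either group, and the GC content was 43%, 39.3% and 41%. The motif AAACCCTA, bound by TRB proteins and searched on both strands, was in 27 of the 201 gained windows (13.4%, Wilson 95% interval 9.40 to 18.8) and in 25 of the 295 lost windows (8.47%, 5.81 to 12.2). It was in 12.5% of the windows of all TRBIP1-dCAS9-MQ1v segments and in 12.2% of those of all fwa rdr6 segments, so the gained share lay near the share over all segments.

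Gained and lost segments differed in where they lay. A segment was counted as lying at a start where its middle was at most 500 bp away from the nearest coding-gene start. This held for 127 gained segments (63.2%, 56.3 to 69.5), close to the 65.6% of all TRBIP1-dCAS9-MQ1v segments. It held for only 116 lost ones (39.3%, 33.9 to 45.0), against 64.4% of all fwa rdr6 segments. Segments that covered a start but had their middle farther away were not counted, and called segments were shorter than most. Of the lost segments, 52 (17.6%, 13.7 to 22.4) lay between genes and 23 (7.80%) at pseudogenes, where all fwa rdr6 segments had 0.873% and 0.955%. Of the gained segments, 27 (13.4%, 9.40 to 18.8) lay at pseudogenes and 5 between genes, and all TRBIP1-dCAS9-MQ1v segments had 0.994% at pseudogenes. Windows of 100 kb were ranked by the share of their bases in annotated genes of any kind, pseudogenes included. The 20% with the lowest share held 10.9% of gained segments (7.34 to 16.0) and 18.6% of lost ones (14.6 to 23.5), against 7.69% and 7.90% of all segments. Both sets had local concentrations. On chromosome 4, 8 of the 20 TRBIP1-dCAS9-MQ1v segments between 4 and 5 Mb and 6 of the 24 between 3 and 4 Mb were gained, and on chromosome 2, 8 of the 74 fwa rdr6 segments between 6 and 7 Mb and 9 of the 129 in the first Mb were lost. These windows were picked as the ones with the most calls. A gained segment lay a median of 2371 bp from the nearest fwa rdr6 peak, and a lost one 2032 bp from the nearest TRBIP1-dCAS9-MQ1v peak, so that only 23 gained and 44 lost segments lay within 500 bp of a peak of the other group.

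The 24 H3K4me3 libraries outside the 3 groups showed which segments vary from library to library. A peak was found at 24.9% and 43.8% of gained segments in the 2 rdr6 libraries and at 24.9% and 27.4% in the 2 fwa libraries. For lost segments the shares were 46.4% and 53.9% in rdr6 and 57.3% and 40.0% in fwa, and over all fwa rdr6 segments they were between 96.8% and 98.5%. Of the 31 gained segments with a fold of at least 4, 18 had a peak in both fwa libraries, 13 in at least 1 Col-0 or rdr6 library and 4 in both rdr6 libraries. Of the 19 lost ones with a fold of at least 4, 10 had a peak in both fwa libraries and none in any Col-0 or rdr6 library. Both rdr6 libraries had a peak at 39 of the 170 weaker gained segments (22.9%) and at 129 of the 276 weaker lost ones (46.7%).

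**Figure D4:**
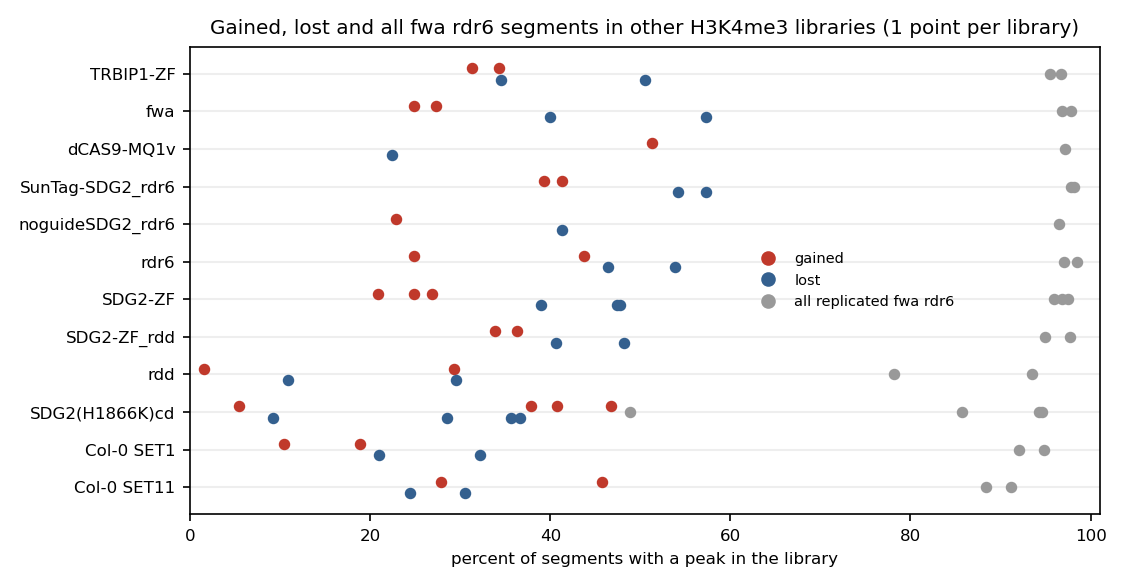
Percent of the 201 gained (red), 295 lost (blue) and all 15814 replicated fwa rdr6 segments (grey) that carry a peak in each H3K4me3 library outside the compared groups and in dCAS9-MQ1v, 1 point per library. The blue points reach 57.3% at most, and dCAS9-MQ1v is the library with the highest share of gained segments.

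Other marks separated the sets in a different way. H2A.Z, a histone variant found at the starts of genes, had a peak in the 2 Col-0 libraries at 80.1% and 71.6% of gained segments and at 54.2% and 39.7% of lost ones, with 76.7% and 62.4% of all fwa rdr6 segments. H3K14ac, an acetylation of active genes, had a peak at only 39.8% and 40.8% of gained and 45.1% and 46.4% of lost segments, against 93.4% and 93.8% of all fwa rdr6 segments. On the gained side the Wilson 95% interval held the share of all segments in replicate 1 (74.0 to 85.03) and lay above it in replicate 2 (65.1 to 77.4), and on the lost side both intervals lay below it (48.5 to 59.8 and 34.2 to 45.3). H3K14ac was below the share of all segments on both sides. In the 1 Myc-JMJ14 library a peak was found at 9 gained (4.48%, 2.37 to 8.29) and 2 lost segments (0.678%, 0.186 to 2.44), against 3.04% of all fwa rdr6 segments. With TRBIP1-ZF beside Myc-JMJ14, the shares in replicates 1 and 2 were 15.9% and 3.48% of gained segments. They were 7.80% and 3.73% of lost ones, against 11.6% and 10.3% of all fwa rdr6 segments.

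The contrast with dCAS9-MQ1v, which differs by TRBIP1, rested on 1 library and has no test. Of its 15731 peaks, 142 (0.903%) had no TRBIP1-dCAS9-MQ1v peak, with a highest fold of 3.55. FWA, at 3.32, ranked 2 among them, after a stretch upstream of AT1G57620, annotated as an emp24/gp25L/p24 family protein, where fwa rdr6 had folds of 3.42 and 3.04. Both fwa rdr6 libraries had a peak at 65 of the 142, 1 of them at 34 and neither at 43. In the other direction, 287 TRBIP1-dCAS9-MQ1v segments (1.84%) had no dCAS9-MQ1v peak, led by AT4G06720, and both fwa rdr6 libraries had a peak at 110 of them. Without TRBIP1-dCAS9-MQ1v replicate 1 the counts were 409 lost and 467 gained, and without replicate 2 they were 246 and 497.

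At the 15259 segments with a peak in all 4 libraries, the fold of the peaks was compared. The log2 difference between TRBIP1-dCAS9-MQ1v and fwa rdr6 lay within 0.5 of 0 at 96.2% of them, with a median of 0.004. The TRBIP1-dCAS9-MQ1v libraries differed from each other (SD of the log2 difference 0.309) about as much as from fwa rdr6 (0.284 to 0.315), and the fwa rdr6 libraries differed less (0.228). By limma with Benjamini-Hochberg adjustment at 0.05, 9 segments (0.059%) were higher in TRBIP1-dCAS9-MQ1v and 14 (0.0917%) lower, out of 1105 with an unadjusted p under 0.05. After quantile normalisation the split was 15 higher and 14 lower. With the replicate number as a block, limma called 326 segments, 114 higher (0.747%) and 212 lower (1.39%), and all 23 calls made without it remained. The called falls went with a change of the listed position: the summits of the 2 groups were more than 500 bp apart at 12 of the 14 called lower and at 3 of the 9 called higher, against 4.86% of all shared segments. An example is UBQ10, a polyubiquitin gene, with folds of 3.43 and 4.34 in TRBIP1-dCAS9-MQ1v, 3.81 in dCAS9-MQ1v, and 8.21 and 9.13 in fwa rdr6 (log2 difference −1.12 ± 0.13 SE, limma adjusted p = 0.0251) and summits 665 bp apart. The 5 largest falls, at RLP32, PSAD-2, UVH1, AT1G52780 and AT3G51730, were of this kind, with log2 differences of −2.39, −2.31, −2.29, −2.02 and −1.91, as were those at PAI1 (−1.57) and AT4G40045 (−1.36). Of the 14 falls, those at AT2G01310 and AT2G01090 had nearby summits. AT2G01310 (log2 difference −1.48, summits 54 bp apart) had folds of 2.097 and 2.894 in TRBIP1-dCAS9-MQ1v, no peak in dCAS9-MQ1v, and 6.57 and 7.67 in fwa rdr6. The part of the summit choice in the other falls was not tested. The numbers of calls changed with the libraries, to 294 without TRBIP1-dCAS9-MQ1v replicate 1, 341 without replicate 2, 22 without fwa rdr6 replicate 1 (13 higher, 9 lower) and 14 without fwa rdr6 replicate 2 (9 higher, 5 lower). Among the falls, PAI1, AT2G01310 and AT4G40045 did not pass without either fwa rdr6 library, nor AT3G51730 without replicate 2, with highest limma adjusted p values of 0.0785, 0.133, 0.215 and 0.0617.

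Of the 9 rises, 6 had summits within 200 bp of each other. One was MSH4, named here after its value was seen, which acts in meiotic crossover formation. MSH4 had folds of 5.46 and 6.20 in TRBIP1-dCAS9-MQ1v, 4.54 in dCAS9-MQ1v, and 2.76 and 2.77 in fwa rdr6 (log2 difference 1.12 ± 0.15 SE, limma adjusted p = 0.0482). AT5G02520, with summits 76 bp apart, had 6.71 and 6.88 in TRBIP1-dCAS9-MQ1v, 4.37 in dCAS9-MQ1v, and 2.60 and 2.88 in fwa rdr6 (1.36 ± 0.14 SE, adjusted p = 0.0152). The groups did not overlap at either, and dCAS9-MQ1v lay between them. The other rises named by the rule were AT1G09486 (log2 difference 1.59), AT5G66564 (1.54), AT3G09480 (1.48, a histone family protein), AT4G10950 (1.27), AT1G72200 (1.25), AT1G25211 (1.18, an F-box protein) and AT3G62460 (1.12). AT4G10950 did not pass without fwa rdr6 replicate 1 (limma adjusted p = 0.0516), AT1G25211 without fwa rdr6 replicate 2 (0.0701), and AT1G72200 without either (at most 0.176). With a variance prior that had no trend, AT1G25211 did not pass (limma adjusted p = 0.0627). With dCAS9-MQ1v in the fit as a group of its own, whose lone library is assumed to vary like the others, AT1G72200 did not pass (limma adjusted p = 0.0643).

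**Figure D5:**
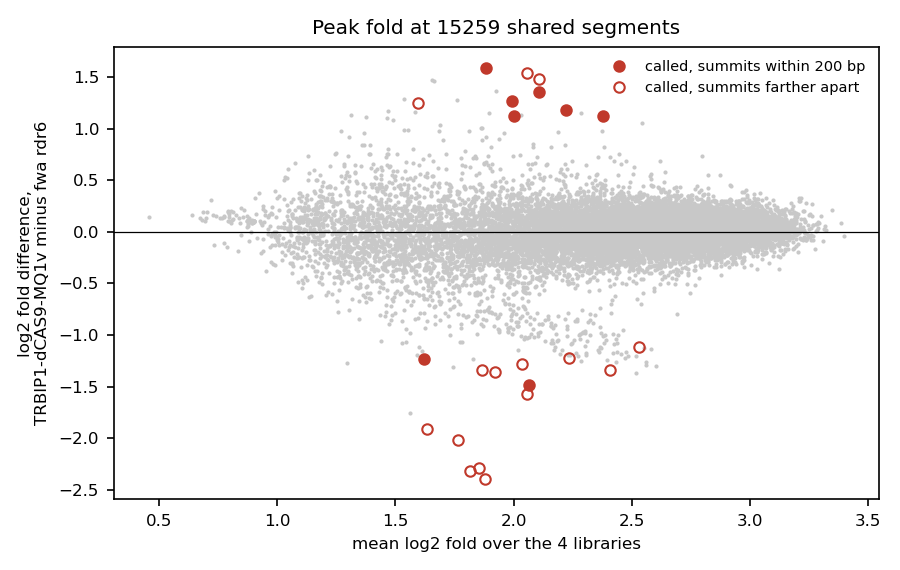
Log2 fold difference (TRBIP1-dCAS9-MQ1v minus fwa rdr6) against the mean log2 fold at the 15259 shared segments, 1 point per segment, with called segments in red, filled where the summits lie within 200 bp of each other. Most points lie within 0.5 of 0, and the called falls are mostly open circles.

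Restricting the fit to the 13733 shared segments with summits within 200 bp, an alternative chosen after seeing the data, gave 37 rises (0.269%) and 12 falls (0.0874%), so the split turned towards rises. Of the 49, 8 were also called among all shared segments. With the replicate block the same segments gave 148 rises (1.08%) and 130 falls (0.947%), all 49 among them. Among the 12 falls were PAC (log2 difference −0.85), ATBRXL2 (−0.82) and FIB1 (−0.77). The rises included genes of replication, chromatin and silencing, picked from the 37 after their values were seen, so they do not describe the rises as a whole. CDT1A, a replication licensing factor, had folds of 6.41 and 5.64 in TRBIP1-dCAS9-MQ1v, 5.99 in dCAS9-MQ1v, and 2.76 and 2.09 in fwa rdr6 (log2 difference 1.36). CDC27a, a subunit of the anaphase-promoting complex, had 4.64 and 4.28 in TRBIP1-dCAS9-MQ1v, 3.79 in dCAS9-MQ1v, and 2.00 and 1.79 in fwa rdr6 (1.28). FAS2, a subunit of the histone chaperone CAF-1, had 4.11 and 4.04 in TRBIP1-dCAS9-MQ1v, 3.57 in dCAS9-MQ1v, and 2.31 and 1.94 in fwa rdr6 (0.98). The dCAS9-MQ1v library was nearer to TRBIP1-dCAS9-MQ1v than to fwa rdr6 at each of these 3 genes. SMC3 (1.099), CYCA1;2 (1.03) and WEE1 (0.89) rose as well, with dCAS9-MQ1v folds of 2.50, 5.02 and 4.51. At SMC3 the dCAS9-MQ1v fold lay nearer to fwa rdr6 (1.72 and 2.13) than to TRBIP1-dCAS9-MQ1v (4.16 and 3.81). RDR2, which makes double-stranded RNA for RNA-directed DNA methylation, had 5.14 and 4.68 in TRBIP1-dCAS9-MQ1v, 4.98 in dCAS9-MQ1v, and 2.56 and 3.19 in fwa rdr6 (0.82, limma adjusted p = 0.0209, and over all shared segments 0.221, or 0.00628 with the replicate block). DML1, the DNA demethylase also called ROS1, rose at an exonic segment, with 3.34 and 3.76 in TRBIP1-dCAS9-MQ1v, 3.03 in dCAS9-MQ1v, and 1.93 and 1.83 in fwa rdr6 (0.95, limma adjusted p = 0.0209), whereas its stronger segment did not pass (0.05, adjusted p = 0.935 over all shared segments). A run of F-box genes on chromosome 1 (AT1G24800, AT1G24881, AT1G25055, AT1G25150 and AT1G25211) rose by between 0.65 and 1.17. Where such copies are near-identical, reads may have been shared between them by the alignment.

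Of the 135 loci in the gene lists, 5 (3.70%) had a gained segment between 1 kb upstream and the gene end and 3 (2.22%) a lost one, beside 0.791% and 0.940% of all coding genes. The targeted gene FWA is 1 of the 3. DNA methylation maintenance and flowering time had 2 members each with a gained segment. MET1, the maintenance CG methyltransferase, had folds of 2.56 and 3.56 in TRBIP1-dCAS9-MQ1v and no peak in dCAS9-MQ1v or fwa rdr6, and VIM2, a reader of methylated CG on which MET1 depends, had 2.11 and 2.28 in TRBIP1-dCAS9-MQ1v only. CMT3, the CHG methyltransferase, had 4.64 and 4.49 in TRBIP1-dCAS9-MQ1v, 2.57 in dCAS9-MQ1v, and 1.77 and no peak in fwa rdr6, so that it was not called. All 10 members of the list had a peak in both TRBIP1-dCAS9-MQ1v libraries, 7 in dCAS9-MQ1v and 6 in both fwa rdr6 libraries. These counts include the peaks behind the gained calls of MET1 and VIM2, so they are not separate evidence. They also include weak peaks, as at VIM1, with 2.18 and 2.08 in TRBIP1-dCAS9-MQ1v, and 1.86 and no peak in fwa rdr6. The list was chosen with earlier results known, and the same counts over all coding genes were not worked out. In RNA-directed DNA methylation, NRPD1A, the largest subunit of RNA polymerase IV, was lost, with folds of only 1.73 and 1.91 in fwa rdr6. Among 19 flowering time genes, MAF5 and MAF4, MADS-box relatives of FLC, were gained, MAF5 with 4.32 and 4.43 in TRBIP1-dCAS9-MQ1v and 4.48 in dCAS9-MQ1v, and MAF4 with 2.87 and 1.92 in TRBIP1-dCAS9-MQ1v and 2.21 in dCAS9-MQ1v. FT and FLC had no peak in any of the 5 libraries. The salicylic acid marker PR1 was gained (1.73 and 2.25 in TRBIP1-dCAS9-MQ1v), and the jasmonate biosynthesis gene AOC1 had a lost segment, with 1.96 and 2.97 in fwa rdr6 and another peak of 2.32 in TRBIP1-dCAS9-MQ1v replicate 2. AOC1 was not called when same-numbered libraries were compared as pairs.

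The genes of the H3K4 machinery kept their own mark, as most segments did. Of 15814 replicated fwa rdr6 segments, 15174 had a peak in both TRBIP1-dCAS9-MQ1v libraries. Of the 15259 shared segments, 0.059% were called higher and 0.0917% lower. All 7 H3K4 methyltransferase genes, all 8 JMJ14 and TRB partner genes and 8 of 9 H3K4 demethylase genes had a peak in all 5 libraries, none was called, and their log2 differences lay between −0.33 and 0.46. JMJ14 had folds of 4.92 and 4.94 in TRBIP1-dCAS9-MQ1v, 4.81 in dCAS9-MQ1v, and 4.69 and 4.57 in fwa rdr6. The TRBIP1 gene (AT4G35510) had 2.52 and 3.36 in TRBIP1-dCAS9-MQ1v, 5.68 in dCAS9-MQ1v, and 5.21 and 5.67 in fwa rdr6. The groups did not overlap there, but the difference did not pass (log2 −0.86 ± 0.17 SE, limma adjusted p = 0.236) unless the replicate number was a block (limma adjusted p = 0.00357). Per the study, the TRBIP1-dCAS9-MQ1v transgene holds the TRBIP1 coding sequence. Reads from it may align to this gene, so the transgene and the endogenous gene cannot be told apart here. RDR6 had 3.59 and 4.02 in TRBIP1-dCAS9-MQ1v, 4.72 in dCAS9-MQ1v, and 3.62 and 4.09 in fwa rdr6 (0.03 ± 0.15 SE, adjusted p = 0.974). Over all shared segments, UBQ10 was the only one of 96 list members called, and with the replicate block TRBIP1 and RDR2 were called as well.

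Genes of DNA replication, the cell cycle and recombination were frequent among the gained segments. As this was seen in the results, whole families were then taken by gene symbol, and their counts are given with no test. Of 84 such genes, 18 (21.4%) had a gained segment and none had a lost one, beside 0.791% and 0.940% of all coding genes. Peaks were listed in both libraries at 61 of the 84 in TRBIP1-dCAS9-MQ1v and at 46 in fwa rdr6, and in dCAS9-MQ1v at 54. The counts of the 2 compared groups rest on the same peaks as the gained calls that led to these families, so they are not separate evidence. By group, 10 of 32 replication genes, 3 of 32 cyclin and B-type cyclin-dependent kinase genes, and 5 of 20 recombination and mismatch repair genes had a gained segment. CDC6, a licensing factor that loads the replicative helicase, had folds of 4.88 and 5.60 in TRBIP1-dCAS9-MQ1v, 4.41 in dCAS9-MQ1v and no peak in fwa rdr6. At their gained segments ORC2 and ORC6, subunits of the origin recognition complex, had 4.13 and 3.91 and then 3.22 and 3.87 in TRBIP1-dCAS9-MQ1v, with 2.59 and 3.92 in dCAS9-MQ1v. A gained segment did not mean a gene without a peak in fwa rdr6. Elsewhere between 1 kb upstream and the gene end, fwa rdr6 had folds of 7.55 and 8.58 at ORC2. The same held at MCM10 (6.09 and 6.44) and POLA3 (4.88 and 6.74), which are also among the 18. Among the 5 libraries, the helicase subunits MCM2 (2.14 and 2.54) and MCM3 (1.58 and 2.31) had peaks in TRBIP1-dCAS9-MQ1v only. The gained segments of the mitotic kinases CDKB1;2 and CDKB2;1 and the cyclin CYCD4;1 were likewise marked in TRBIP1-dCAS9-MQ1v only, with folds between 1.86 and 2.45. Outside the 5, both Col-0 libraries of set 11 had a peak at the segments of MCM2 and CDKB2;1. In recombination, MSH5, the partner of MSH4, had 4.39 and 5.20 in TRBIP1-dCAS9-MQ1v and 4.08 in dCAS9-MQ1v, and BRCA2B had 4.42 and 5.13 in TRBIP1-dCAS9-MQ1v and 2.55 in dCAS9-MQ1v. ZYP1b, of the synaptonemal complex, and SPO11-2, which acts in meiotic break formation, had folds between 2.54 and 2.85 in TRBIP1-dCAS9-MQ1v. Of these 18 gained segments, 9 had a dCAS9-MQ1v peak, 8 had a peak in at least 1 of the 2 Col-0 libraries of set 11, 4 in at least 1 rdr6 library, 1 in a fwa library and none in the Col-0 libraries of set 1. A different share of dividing cells in the sampled leaves was not tested as part of these values.

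A minority of the gained and lost segments were called in the same direction where TRBIP1 was brought in by a zinc finger. In TRBIP1-ZF against fwa, processed in the same way, there were 194 gained and 220 lost segments. Of the 201 gained segments, 20 overlapped a gained one of TRBIP1-ZF (9.95%, and 10.3% of the 194), and 13 overlapped a lost one. Of the 295 lost segments, 13 overlapped a lost one of TRBIP1-ZF (4.41%, and 5.91% of the 220), and 5 a gained one. The overlap expected from all segments was not worked out, so these shares are not read as high or low. The pair of contrasts shares no library. Per the study, TRBIP1-ZF was placed in the fwa background and not in fwa rdr6, and its libraries belonged to sets 8 and 9. FWA was not among the shared lost segments, since TRBIP1-ZF replicate 1 kept a peak there. Among the shared lost ones were AT3G11290 and AT2G14430, and among the shared gained ones BRCA2B and ZYP1b.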

How the data were processed

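ChIP-seq of H3K4me3 was done on leaves, and the study's methods name Trim Galore 0.6.5 for trimming, Bowtie2 2.1.0 for alignment to TAIR10, SAMtools 1.9 for duplicate removal and MACS2 2.2.1 for peaks, which the authors deposited per library. By the sample labels, the other sets held input or histone H3 libraries, whereas set 10 held none. The compared libraries thus had no control library of their own set in the series. Whether a control library was used for a call is not given in the sources used here. The deposited peak lists give, as made by the authors, each peak's fold enrichment, a ratio over the local background. They also give the −log10 of its q-value, as deposited. Fold depends on depth and background, which differ between libraries.

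From these, segments were built with Python 3.11.15, numpy 2.4.6 and pandas 2.3.3. Lines of one interval were merged and given the highest fold, and organelle peaks were left out (53 to 191 lines per list). At shared segments, log2 fold, centred per library on its median, was tested with limma 3.58.1 (R 4.3.3, variance trend, Benjamini-Hochberg adjustment over 15259 segments, adjusted p under 0.05). The segment and limma steps were tested on simulated data. Shares carry Wilson 95% intervals (scipy 1.17.1). Genes and sequences came from RefSeq TAIR10.1, whose nuclear coordinates equal those of TAIR10.

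Named by rule were FWA, its neighbours, the construct genes, list members with a gained or lost segment, the 12 strongest segments in each direction, and the 8 largest called rises and falls. The members and lists were chosen with earlier results of these data known. The alternatives were a stricter q, equal peak numbers, a stricter overlap, longer segments, other scalings and variance models, left-out libraries and a replicate block. The study states that treated and control plants grew side by side and that replicates had separate plates, so the replicate number may mark a growth batch, although no source ties the library numbers to plates. Between the groups, the replicate 1 minus replicate 2 differences correlated at r = 0.144 over 15259 segments. The fit without the block was kept, and the blocked values are printed where they differ. No columns of other series were present. Guide sequences, signal tracks and the authors' other comparisons were not used here.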

Additional observations from a re-analysis of the deposited data

How the results depend on the processing

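FWA was lost under all alternatives tried for it, and so were the other 11 strongest lost and 12 strongest gained segments. Weaker named calls depended on the setting. NRPD1A, AOC1, MAF4 and PR1 were not called with a −log10 q of at least 5, nor, with VIM2, at a minimum length of 300 bp. NRPD1A and AOC1 also failed with equal numbers of peaks, and AOC1 without fwa rdr6 replicate 1 and under the block. No alternative reversed a direction.

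A minimum segment length of 300 bp left 121 gained and 170 lost segments, 65.3% of the gained ones with a dCAS9-MQ1v peak, and 58 lost and 140 gained against dCAS9-MQ1v. Leaving out 1 library at a time gave 276 to 338 gained and 388 to 509 lost segments, with a dCAS9-MQ1v peak at 38.5% to 54.1% of gained and 17.1% to 45.2% of lost ones. Against dCAS9-MQ1v it gave 246 to 409 lost and 467 to 497 gained segments. In limma it gave 14 to 341 calls, 9 to 102 higher and 5 to 239 lower. The stricter q gave 49 calls, 29 of them higher. Quantile normalisation gave 15 higher, a variance prior without a trend 16, and summits within 200 bp 49 calls with 37 higher.

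TRBIP1-dCAS9-MQ1v and fwa rdr6 share replicate numbers. With the replicate number as a block, limma called 326 segments, 114 higher and 212 lower, and the paired segment rule gave 189 gained and 283 lost. At summits within 200 bp the block gave 278 calls, 148 higher and 130 lower. The block ended the call of AOC1, made those of TRBIP1 and RDR2, and changed no other call at the named segments and list members. Fits without a fwa rdr6 library or with the block gave no value for the contrasts with dCAS9-MQ1v. Weak peaks are limited by the caller's threshold, below which a peak is listed as absent. The part of depth was not tested.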

Other observations

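Other stronger gained segments, chosen after their values were seen, included SIR, PERK13, QQS, HTA8 and FANCM. SIR, which encodes sulfite reductase, had a gained segment at its 3′ UTR with folds of 6.02 and 5.47 in TRBIP1-dCAS9-MQ1v and 6.32 in dCAS9-MQ1v. PERK13, a proline-rich receptor-like kinase gene, had 5.18 and 6.42 in TRBIP1-dCAS9-MQ1v and 4.01 in dCAS9-MQ1v. QQS, an orphan gene that affects starch content, had 3.94 and 3.27 in TRBIP1-dCAS9-MQ1v and 4.21 in dCAS9-MQ1v. HTA8, a histone H2A gene, had 3.92 and 3.37 in TRBIP1-dCAS9-MQ1v and no dCAS9-MQ1v peak, and FANCM, a helicase gene that limits crossovers, had 3.53 and 3.70 in TRBIP1-dCAS9-MQ1v and 2.31 in dCAS9-MQ1v. None of the 5 had a fwa rdr6 peak there.

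Beyond the 12 strongest, the lost segments with a fold of at least 4 included RALFL3 (AT1G23147), a gene of RALF-like peptides, with 4.15 and 4.73 in fwa rdr6, and the pseudogene AT5G35207, with 4.12 and 4.73 in fwa rdr6. Neither had a peak in any of the 24 other H3K4me3 libraries. Of all 295 lost segments, 66 had a peak in none of those libraries, and of the 201 gained ones, 21 did.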
